A study of Mus musculus with 8 samples.

Results

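Interferon-induced genes were followed across the cell types of mouse subcutaneous white fat (sWAT) under 2 feeding schedules. The 9 genes are Ifi27l2a, Isg15, Ifit1, Ifit3, Irf7, Bst2, Gbp2b, Ifitm3 and Oasl2, out of 32285 genes in the count tables. They were chosen by an earlier reading of these same libraries, in which summed counts were set side by side between schedules and Ifi27l2a fell in endothelial cells and Gbp2b in macrophages. The difference between schedules is therefore given for these 9 genes as a description, without a test. Tests are kept for their levels between cell types and for 156 other genes of the interferon pathway.

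The libraries came from the stromal vascular fraction (SVF) of the inguinal fat pad of male C57BL/6 mice (C57BL/6J in the study's own text), that is, the cells left once collagenase-digested fat has been spun and the floating adipocytes are gone. Mice of the Ad-Lib group ate at will (libraries 1, 3, 5 and 7). TAN mice had food only in 2 windows of the dark phase (libraries 2, 4, 6 and 8). No genotype or drug was used in either group. Droplet single-cell RNA-seq (10x Genomics, 3' chemistry) counts unique molecular identifiers (UMIs), each standing for 1 captured RNA molecule. The labels give all mice an age of 8 weeks, whereas the study's text gives the males of these libraries an age of several months after months on the schedules, so the sources differ on the age. By the study's count of mice each library stood for its own animal, and nothing in the labels ties a library of one group to a library of the other.

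Of 44427 barcodes, 36370 passed the filters on depth and mitochondrial share, from 3717 to 5654 per library, and the libraries held 25320800 to 37140950 UMIs. Cells were sorted in silico into marker gates, so each name below means cells that look like that type by its markers. The gates held 9758 progenitor, 6385 endothelial, 3943 macrophage, 3769 T and 2634 B cells, or 72.8% of the cells kept. Among the 10 genes that most marked each of these 5 gates were 4 to 6 of its own markers and 0 of another lineage. Within the progenitors, 3892 cells carried the Dpp4+ signature, 3220 the Icam1+ signature and 400 the F3+ signature. Among the 10 genes that most marked these subsets were 2, 1 and 4 of their own or the progenitor markers, in that order. Cell numbers differed between schedules, with 732 Ad-Lib and 3037 TAN T cells, and as few as 17 B cells in a single library. The median mitochondrial share of all barcodes was 1.79% to 2.54% in Ad-Lib and 2.80% to 4.24% in TAN libraries, without overlap. Values are UMIs summed over the gated cells of a library and given per 1000000 UMIs of that sum (CPM). Per-library values are always listed as Ad-Lib 1, 3, 5 and 7, then TAN 2, 4, 6 and 8. In sums of this kind, a smaller share of expressing cells and less RNA per cell cannot be told apart. Between any pair of libraries 2 to 14 cell barcodes were the same, 174 distinct barcodes in all.

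Interferons are secreted proteins that signal through surface receptors to transcription factors in the nucleus. Type I interferons act on target genes mainly through the interferon-stimulated response element (ISRE), whereas interferon gamma acts mainly through gamma-activated sites (GAS). The induced genes include antiviral effectors, GTPases, class I antigen-presentation genes and regulators such as Irf7. Fat holds many cell types that can answer an interferon, among them macrophages, endothelial cells and adipocyte progenitors. The 9 genes lie on 7 autosomes (GENCODE M21, GRCm38). Ifi27l2a, a small hydrophobic protein named for its induction by interferon alpha, lies at chr12:103442167-103443680 on the minus strand. Ifit1 (chr19:34640871-34650009) and Ifit3 (chr19:34583531-34588731) are neighbours on the plus strand and encode RNA-binding antiviral proteins. Irf7 (chr7:141262706-141266481, minus strand), the transcription factor that amplifies type I interferon output, shares 45 exon bases with Phrf1 on the opposite strand. Ifitm3 (chr7:141009586-141010770, minus strand) blocks viral entry at the endosome, and Bst2 (tetherin, chr8:71534255-71537456, minus strand) holds budding virions at the cell surface. Isg15 (chr4:156199424-156200818, minus strand) is a ubiquitin-like modifier. Oasl2 (chr5:114896936-114912234, plus strand) belongs to the oligoadenylate synthetase family, and Gbp2b (chr3:142594847-142619179, plus strand) is a guanylate-binding GTPase known as an interferon gamma target. Over the last 400 bases of its transcript Ifit3 is 95% identical to Ifit3b, which the tables also count, so reads can be split between them and Ifit3 values are uncertain.

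Promoter stretches are shown for the 5 genes that carry the ISRE core GAAANNGAAA within 250 bases upstream or 50 bases downstream of their RefSeq start, since this is the sequence feature the selection of the genes did not use. Promoters of 8 of the 9 genes were in the RefSeq table (GRCm38.p6). Each line gives bases 160 to 41 upstream of the start on the gene's own strand, with capitals for every GAAANNGAAA on either strand, which reads as its reverse complement where it lies on the other strand, and, in Bst2, for an overlapping GAS core TTCNNNGAA.
Isg15 (chr4:156200859-156200978, minus strand): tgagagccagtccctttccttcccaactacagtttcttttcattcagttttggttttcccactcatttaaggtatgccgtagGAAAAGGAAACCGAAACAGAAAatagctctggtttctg
Ifit1 (chr19:34640729-34640848, plus strand): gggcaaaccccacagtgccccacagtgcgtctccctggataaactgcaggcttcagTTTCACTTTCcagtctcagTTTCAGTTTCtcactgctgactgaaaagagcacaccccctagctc
Ifit3 (chr19:34583369-34583488, plus strand): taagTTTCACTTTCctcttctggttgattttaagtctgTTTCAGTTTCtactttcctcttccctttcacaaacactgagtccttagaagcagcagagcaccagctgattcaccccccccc
Bst2 (chr8:71537513-71537632, minus strand): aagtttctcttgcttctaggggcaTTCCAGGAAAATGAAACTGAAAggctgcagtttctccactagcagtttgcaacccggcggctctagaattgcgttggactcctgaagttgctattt
Gbp2b (chr3:142594687-142594806, plus strand): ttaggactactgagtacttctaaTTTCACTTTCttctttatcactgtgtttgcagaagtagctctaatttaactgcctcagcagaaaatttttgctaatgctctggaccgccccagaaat
Isg15 held 3 overlapping matches, Ifit1, Ifit3 and Bst2 held 2 each and Gbp2b held 1. In Ifit1, Ifit3 and Gbp2b the matches were on the opposite strand. The promoters of Irf7, Ifitm3 and Oasl2 had no match to these letters in the same window. Across the genome 978 of 32851 promoters (2.98%) held GAAANNGAAA on either strand and 2306 (7.02%) held TTCNNNGAA. A match is a string of letters and was not tested as a bound site.

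Each of the 9 genes had its own order of levels among 7 gates, the 3 progenitor subsets, endothelium, macrophages, T cells and B cells. Smaller gates stayed out of this order, although 4 members had a higher mean there than in any of the 7. These were Ifi27l2a in the adipocyte gate (7009 ± 3829 CPM, n = 8) and, over 7 libraries with few cells, Bst2 (764 ± 377) and Irf7 (85.4 ± 95.9) in the dendritic gate and Ifit3 (153 ± 122) in the Schwann gate. The order was taken over the 8 libraries, and neighbours in the order were compared within libraries with an exact two-sided sign-flip permutation test on log2(CPM + 1), adjusted over all 54 neighbour pairs (Benjamini-Hochberg). Of these pairs 11 passed an adjusted p of 0.05, each at the smallest p that 8 libraries allow (exact p = 0.0078125, adjusted p = 0.038352), and 43 did not pass. The pairs with F3+ progenitors rest on few cells.

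Among the 7 gates, Ifi27l2a was highest in macrophages (1088 ± 184 CPM, SD, n = 8) and in Dpp4+ progenitors (948 ± 158), which did not differ beyond their spread. Dpp4+ progenitors lay above T cells (340 ± 57.4), by 1.48 ± 0.29 on the log2(CPM + 1) scale. Below that step T cells, B cells, F3+ progenitors (273 ± 119), endothelium (260 ± 147) and Icam1+ progenitors (207 ± 102) did not differ from their neighbours beyond the spread. The endothelial level differed between schedules. In Ad-Lib libraries alone endothelium (394 ± 40.2) had a higher mean than Icam1+ progenitors (166 ± 21.9). In TAN libraries alone endothelium (125 ± 22.3) had a lower mean than Icam1+ progenitors (248 ± 139).

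Among the effectors, Oasl2 was highest in macrophages (55.2 ± 5.68 CPM), 1.20 ± 0.25 above Dpp4+ progenitors (23.7 ± 4.21) on the log2 scale. The progenitor subsets and the endothelium (18.5 ± 5.74) were not separated from their neighbours, and endothelium lay 2.35 ± 0.48 above T cells (2.83 ± 1.09). Isg15 was highest in endothelium (127 ± 23.2), and a step past the test lay only between T cells (33.9 ± 13.4) and B cells (6.64 ± 6.08), of 2.65 ± 1.18. Ifit1 had no step past the test in its whole order, from 71.0 ± 73.2 in F3+ progenitors to 2.49 ± 3.72 in B cells. For Ifit3 the step was between Dpp4+ progenitors (15.4 ± 4.44) and T cells (4.54 ± 3.56), of 1.82 ± 1.17.

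The membrane proteins had other orders. Of the 7 gates, Bst2 was highest in endothelium (482 ± 53.5 CPM), 0.85 ± 0.15 above macrophages (268 ± 33.9) on the log2 scale, which lay 0.63 ± 0.29 above Dpp4+ progenitors (174 ± 32.7). Ifitm3 ran from 1743 ± 195 in F3+ progenitors to 1305 ± 169 in endothelium with no step past the test, and then dropped by 4.60 ± 0.81 to T cells (63.7 ± 46.8). Irf7 had no step past the test between neighbours from Dpp4+ progenitors (46.5 ± 7.74) through macrophages (43.9) and endothelium (35.5) to T cells (26.4 ± 8.10), which lay 0.80 ± 0.34 above Icam1+ progenitors (14.4 ± 2.58). Gbp2b was nearly absent outside macrophages (15.5 ± 15.1), which lay 3.19 ± 1.48 above T cells (0.33 ± 0.63).

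**Figure D1:**
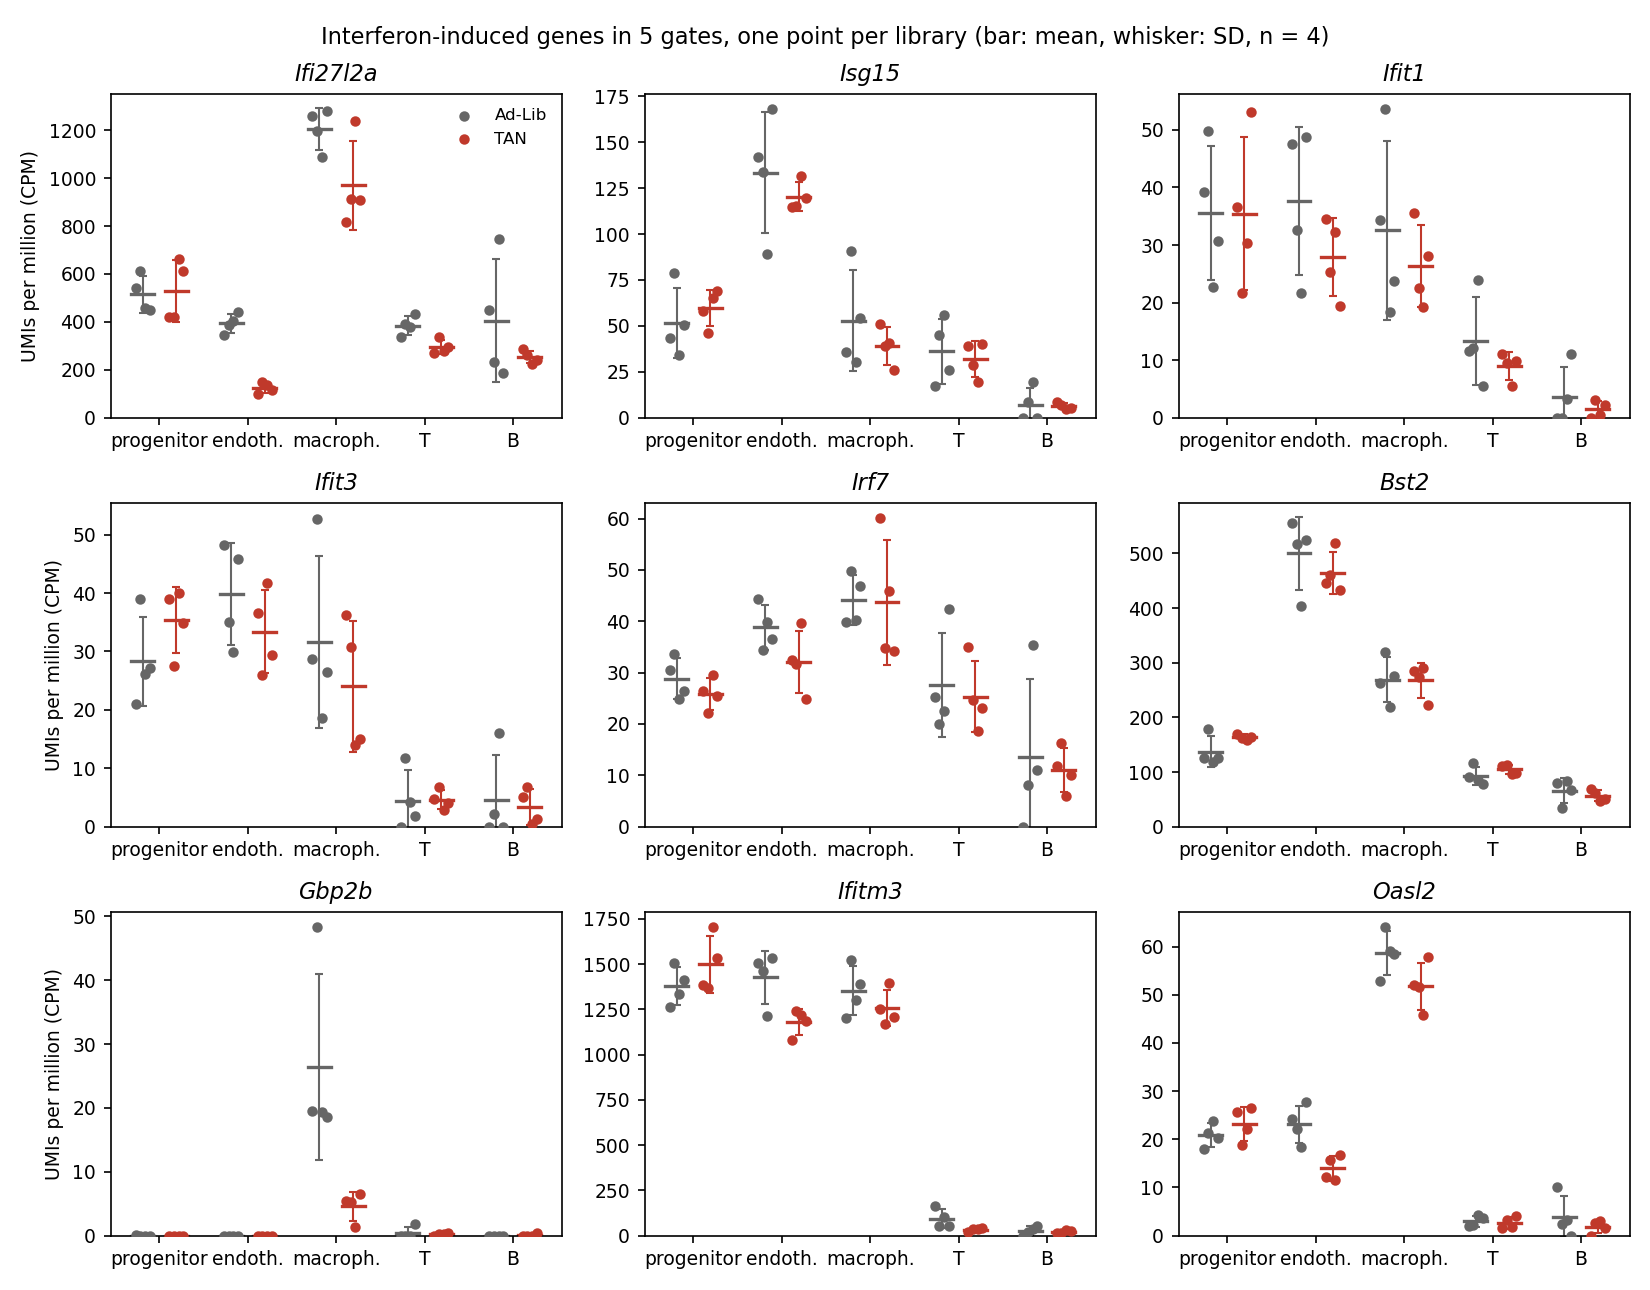
CPM of each of the 9 genes in every library (points; horizontal bars are group means and whiskers the SD, n = 4) for the 5 main cell gates, on a linear axis of its own per gene, with Ad-Lib in grey and TAN in red. Ifi27l2a separates the schedules in the endothelial gate (345.1 to 442.1 against 99.2 to 149.3 CPM) and Gbp2b in the macrophage gate (18.60 to 48.33 against 1.33 to 6.51), while most other pairs of point clouds overlap.

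Between schedules, Ifi27l2a was lower under TAN feeding in the endothelial cells of sWAT. The Ad-Lib libraries held 345.1, 386.6, 403.8 and 442.1 CPM and the TAN libraries 99.2, 149.3, 136.6 and 115.0. Every TAN library was below every Ad-Lib library. Group means were 394 ± 40.2 and 125 ± 22.3 (SD, n = 4 each), from 5459 and 1725 UMIs, and the edgeR fit gave a log2 fold change of -1.64 ± 0.11 (SE), a 3.11-fold lower level under TAN feeding. Leaving out each library in turn moved it between -1.75 and -1.55. The share of endothelial cells with at least 1 Ifi27l2a UMI, after thinning each cell to 2000 UMIs, was 41.9% ± 2.25 under Ad-Lib and 18.7% ± 3.52 under TAN feeding, and 56.8% ± 2.53 and 29.9% ± 3.73 without thinning. Median depth of the cells was 3836 and 3916 UMIs. In natural killer (NK) cells, where Ifi27l2a was low, 8.74% of Ad-Lib and 8.62% of TAN cells had a UMI without thinning, at a median depth of 4900 UMIs over both groups.

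Oasl2 was the other member whose endothelial groups were apart. Its values were 24.27, 22.09, 18.34 and 27.67 CPM in Ad-Lib and 12.17, 15.64, 11.47 and 16.72 in TAN libraries. The TAN values all lay below the lowest Ad-Lib value, with a narrow gap between TAN 8 and Ad-Lib 5. The log2 fold change was -0.71 ± 0.16, from 516 UMIs in all. The remaining endothelial members overlapped between groups. Ifitm3 had means of 1428 ± 147 and 1182 ± 71.0 (log2 fold change -0.26), Ifit1 37.7 ± 12.9 and 27.9 ± 6.85 (-0.39), Irf7 38.8 ± 4.30 and 32.1 ± 6.02 (-0.26) and Ifit3 39.8 ± 8.72 and 33.4 ± 7.08 (-0.23). Isg15 (133 ± 32.9 and 120 ± 7.92) and Bst2 (500 ± 66.4 and 464 ± 37.9) differed least. Gbp2b had 0 UMIs in 6385 cells, which allows a share of cells with a UMI of up to 0.047%. By the threshold used for other genes (edgeR, adjusted p of 0.05 and 1.5-fold), 2 of the 8 members that passed the filter on low counts were past it against 2.18% of all endothelial genes tested, and 2 had groups apart against 9.63% of all. The genes were chosen on this contrast, so nothing is read from these counts.

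The highest Ifi27l2a level of any gate was that of adipocytes. Adipocytes should be scarce in an SVF, yet 906 cells passed the adipocyte gate, with a median of 1106 UMIs, and Ifi27l2a was at 7976, 9586, 10728 and 12353 CPM in its Ad-Lib and 2821, 2151, 6836 and 3619 CPM in its TAN libraries. These groups were also apart, and the ratio of their means was 2.63. A UMI of Ifi27l2a was found in 99.3% of Ad-Lib and 77.2% of TAN cells of that gate. The gate made up 2.49% of the cells and 6.28% of all Ifi27l2a UMIs, while the endothelial gate, with 17.6% of the cells, held 5.86% of them.

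Endothelial cells were divided by how many UMIs of the 7 adipocyte markers each one held. In the 2398 cells with none, Ifi27l2a was at 131 ± 34.6 CPM under Ad-Lib and 59.3 ± 15.2 under TAN feeding, a ratio of 2.21. With 1 such UMI (1117 cells) the means were 249 ± 51.7 and 80.6 ± 11.6, and with 2 or 3 (1214 cells) they were 379 ± 85.4 and 120 ± 34.9. In the 1656 cells with 4 or more they were 801 ± 119 and 223 ± 60.1, a ratio of 3.59. Groups were apart in all 4 classes, the mean was higher in each class with more adipocyte-marker UMIs in both groups, and so was the median depth of the cells, from 3314 to 4620 UMIs. In the fit on cells with no adipocyte-marker UMI, an alternative chosen after seeing the data, the log2 fold change was -1.10 ± 0.17 for Ifi27l2a and -0.56 for Oasl2.

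The adipocyte markers themselves did not separate the groups in endothelium. All 7 were detected there, led by Cfd with 13680 UMIs, and their sum ran from 492.5 to 785.1 CPM in Ad-Lib and from 343.3 to 904.1 in TAN libraries. Per adipocyte-marker UMI, median Ifi27l2a was 0.590 UMIs in Ad-Lib and 0.226 in TAN endothelium, beside 0.386 and 0.154 in the adipocyte gate and 0.599 and 0.289 in mural cells. In macrophages it was 18.4 and 11.5 and in progenitors 27.1 and 17.8. Other lists moved with the endothelial groups as well: the 8 endothelial markers summed to 7930 to 8941 CPM in Ad-Lib and 7042 to 7770 in TAN libraries, and the 6 Dpp4+ markers to 232.4 to 272.0 and 365.7 to 398.2, both without overlap. The sum of 9 dissociation-stress genes overlapped (8767 to 11010 and 3986 to 10550 CPM). The part of these lists in the Ifi27l2a difference was not tested.

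**Figure D2:**
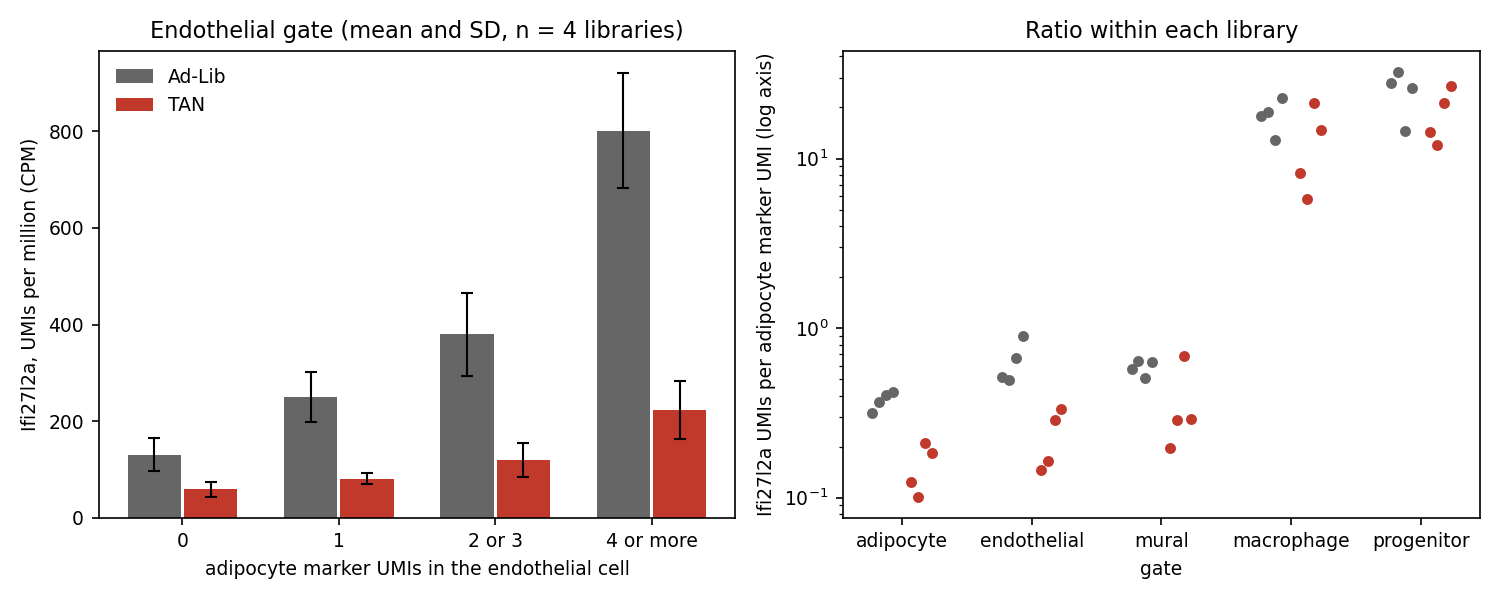
Left, Ifi27l2a CPM in endothelial cells grouped by the number of adipocyte-marker UMIs in the cell (bars are means and whiskers the SD over 4 libraries); right, Ifi27l2a UMIs per adipocyte-marker UMI in each library (points) for 5 gates, on a log axis, with Ad-Lib in grey and TAN in red. Ad-Lib lies above TAN in all 4 classes of the left panel, by ratios of 2.21 with no adipocyte-marker UMI to 3.59 with 4 or more, and in the right panel the median ratios were 0.590 (Ad-Lib) and 0.226 (TAN) in endothelium and 0.386 and 0.154 in the adipocyte gate.

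Most endothelial cells (5251) carried the capillary signature, and in these alone Ifi27l2a was at 439 ± 47.1 and 140 ± 29.6 CPM without overlap, while Oasl2 (20.7 ± 6.04 and 12.4 ± 1.71) overlapped. In the 933 endothelial cells outside the capillary, arterial, venous and lymphatic lists it was at 187 ± 14.1 and 71.2 ± 28.6 CPM. Over all cells kept, Ifi27l2a was at 675 ± 33.5 CPM in Ad-Lib and 425 ± 40.7 in TAN libraries, a ratio of 1.59. Of its 122643 UMIs, progenitors held 36.6%, macrophages 22.9% and cells in no gate 19.5%.

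In the progenitors Ifi27l2a overlapped between schedules. The values were 540.4, 610.8, 457.3 and 449.1 CPM in Ad-Lib and 419.0, 419.7, 662.8 and 612.6 in TAN libraries, with the TAN libraries falling to both sides of the Ad-Lib ones. The log2 fold change was -0.01 ± 0.16. It was -0.15 ± 0.12 in Dpp4+ progenitors, where the level was 993 ± 84.8 and 902 ± 214 CPM. In Icam1+ progenitors it was 0.51 ± 0.25 (166 ± 21.9 and 248 ± 139), with TAN 6 alone at 448.3 CPM. In F3+ progenitors the means were 250 ± 90.1 and 296 ± 153.

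For Bst2 and Ifit3 in progenitors the schedules overlapped through Ad-Lib 3 alone. For Bst2 the Ad-Lib libraries held 126.0, 179.5, 117.8 and 125.5 CPM and TAN libraries 170.3, 161.4, 158.7 and 164.8. The log2 fold change was 0.23 ± 0.14. For Ifit3 they held 20.95, 38.93, 26.13 and 27.09 and 39.01, 27.53, 39.93 and 34.94 CPM, with a log2 fold change of 0.30 ± 0.17. Fitted values of the other progenitor members were 0.18 ± 0.22 for Isg15, 0.16 ± 0.11 for Oasl2, 0.09 ± 0.09 for Ifitm3, -0.03 ± 0.27 for Ifit1 and -0.19 ± 0.13 for Irf7, with overlap in each. None of the 8 progenitor members past the filter had groups apart (6.77% of all progenitor genes did) or passed the edgeR threshold (0.588% of all did). Nor did any pass it within a subset, where the shares of all genes were 0.611% in Dpp4+, 1.67% in Icam1+ and 0.141% in F3+ progenitors. In F3+ progenitors 1 member passed it without Ad-Lib 3 and 1 with no filter on low counts, each higher in TAN libraries. The widest subset value was that of Ifit3 in F3+ progenitors, 1.43 ± 0.51, from 163 UMIs and with overlap between 9.81 to 80.3 and 42.1 to 177 CPM.

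Gbp2b was a gene of macrophages in these libraries. Of its 517 UMIs 88.4% lay in the macrophage gate, and there were 0 in the endothelial, NK, adipocyte, dendritic and mural gates. Its macrophage values were 19.59, 48.33, 19.33 and 18.60 CPM in Ad-Lib libraries, from 107, 166, 75 and 64 UMIs. In TAN libraries they were 5.49, 5.21, 1.33 and 6.51 CPM, from 15, 12, 2 and 16 UMIs. The groups were apart, with 3 Ad-Lib libraries close to each other and Ad-Lib 3 far above them. Means were 26.5 ± 14.6 and 4.63 ± 2.27 CPM, and the log2 fold change was -2.38 ± 0.42. Without Ad-Lib 3 it was -1.90, the smallest change of any left-out library, and the largest was -2.53.

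UMIs of Gbp2b came from 193 Ad-Lib and 33 TAN macrophages, with at most 12 in a cell. At 2000 UMIs per cell 3.86% ± 1.12 of Ad-Lib and 0.70% ± 0.41 of TAN macrophages had one, and 7.87% ± 2.58 and 2.15% ± 1.00 had one without thinning, at median depths of 6225 and 6011 UMIs. In the endothelial gate that share was 0 of 6385 cells. Among the 3432 macrophages with the resident signature the means were 24.8 ± 14.9 and 4.36 ± 2.49 CPM, close to those of the whole gate. The 8 macrophage markers overlapped between groups (11400 to 13810 and 11020 to 13360 CPM), as did the 9 dissociation-stress genes. Markers of T cells were higher in the TAN macrophage sums (0.29 to 1.75 and 2.04 to 19.9 CPM for 6 genes) and those of type 2 innate lymphoid cells (ILC2) lower (34.01 to 54.6 and 19.4 to 30.8 CPM), both without overlap. Their part in the Gbp2b difference was not tested.

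The other macrophage members overlapped between groups. Ifi27l2a was at 1259, 1198, 1087 and 1282 CPM in Ad-Lib and at 815.7, 915.1, 1240 and 910.3 in TAN libraries. Only TAN 6 reached the Ad-Lib range, and the log2 fold change was -0.32 ± 0.10. Isg15 was at 35.89, 90.84, 30.15 and 54.36 in Ad-Lib and at 50.89, 39.05, 40.52 and 26.04 in TAN libraries, with Ad-Lib 3 the highest and a log2 fold change of -0.40 ± 0.30. Overlap was also found for Ifit1 (-0.26 ± 0.29), Ifit3 (-0.32 ± 0.33), Oasl2 (-0.15 ± 0.11), Ifitm3 (-0.11 ± 0.09), Bst2 (-0.01 ± 0.13) and Irf7 (0.01 ± 0.17). All 9 members passed the filter in macrophages. Gbp2b alone had groups apart, against 5.54% of all macrophage genes, and it alone passed the edgeR threshold, against 0.669% of all. Gbp2b was chosen on this contrast, so nothing is read from these counts.

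In T cells, Ifitm3 and Ifi27l2a had groups apart. Ifitm3 was at 162.9, 55.90, 102.4 and 53.41 CPM in Ad-Lib and at 20.63, 35.81, 36.31 and 42.32 in TAN libraries, a log2 fold change of -1.19 ± 0.28. Ifi27l2a was at 337.4, 391.3, 377.2 and 431.0 in Ad-Lib and at 269.7, 335.9, 279.3 and 294.2 in TAN libraries (-0.24 ± 0.13), with TAN 4 just under Ad-Lib 1. These 2 of the 6 members past the filter stand beside 10.5% of all T-cell genes with groups apart, and 1 of 6 (Ifitm3) passed the edgeR threshold beside 3.69% of all. With a library left out 0 members passed it in 7 of 8 fits and 1 did without Ad-Lib 3, and 0 passed in strict gates or by whole profile. The members were chosen on this contrast, so nothing is read from these counts. Isg15 (-0.28 ± 0.29), Ifit1 (-0.58 ± 0.35), Irf7 (0.04 ± 0.25) and Bst2 (0.25 ± 0.17) overlapped.

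The make-up of the T gate differed between schedules. Naive T markers summed to 839.5 to 1929 CPM in Ad-Lib and 2240 to 2444 in TAN libraries. Macrophage markers summed to 47.7 to 120 and 18.5 to 40.3 CPM, NK markers to 93.1 to 252 and 34.1 to 59.5, and dendritic markers to 51.9 to 160 and 0.79 to 45.2. None of these ranges overlapped. Cells with the resident T signature (378) held 443 ± 128 and 440 ± 115 CPM of Ifi27l2a in Ad-Lib and TAN libraries, above the 274 ± 56.3 and 230 ± 28.6 CPM of naive T cells (2402). In the 1367 T cells outside the naive list, an alternative chosen after seeing the data, Ifi27l2a was at 438 and 447 CPM with a log2 fold change of 0.08, and the value for Ifitm3 was -0.66. With cells assigned by their whole profile in place of marker gates the value for Ifitm3 was -0.06, so both T-cell differences depended on which cells were taken.

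In B cells only Ifi27l2a, Irf7, Bst2 and Ifitm3 passed the filter, and all 4 overlapped. Ifi27l2a was at 450.6, 234.5, 747.9 and 187.6 CPM in Ad-Lib and at 286.6, 261.4, 223.7 and 241.6 in TAN libraries, with Ad-Lib 5 far above the rest. Groups were apart for 0 of these 4 members and for 2.28% of all B-cell genes. No gene of 7577 passed in B cells (0% called by edgeR, 0 by DESeq2), although 205 had an unadjusted edgeR p under 0.05.

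Among single cells, the antiviral members were detected together in progenitors, endothelium and macrophages. At 2000 UMIs per cell 28.5% of endothelial cells with an Ifit1 UMI also had an Ifit3 UMI (75 of 263), compared with 5.39% of those without Ifit1. The figures were 29.3% (41 of 140) and 3.30% in macrophages and 16.8% (63 of 374) and 4.22% in progenitors. Oasl2 was found in 31.3% of macrophages with Ifit3 and in 8.56% of those without. The narrowest contrast in these 3 gates was Irf7 in progenitors, found in 5.73% of cells with Ifit3 and 4.61% of those without. In T and B cells the counts were small, and in T cells Irf7 was found in 1 of 34 cells with Ifit3 (2.94%) and in 5.33% of those without. Because Ifit3 shares its 3' end with Ifit3b, and cells of 1 library share their source, these are descriptions.

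Thinning left out cells with fewer than 2000 UMIs, which were 490 Ad-Lib and 454 TAN endothelial cells, 283 Ad-Lib and 217 TAN macrophages, 403 Ad-Lib and 535 TAN progenitors, 9 Ad-Lib and 122 TAN T cells and 18 Ad-Lib and 55 TAN B cells. Cells with at least 3 of the 5 core genes Isg15, Ifit1, Ifit3, Irf7 and Oasl2 were rare. They made up 1.87% of endothelial cells (102 cells), 1.80% of macrophages (62), 0.918% of progenitors (81), 0.247% of T cells (9) and 0.0781% of B cells (2) after thinning. Without thinning the shares were 5.39%, 8.55%, 7.44%, 1.03% and 0.190%. Ad-Lib and TAN shares after thinning were 2.11% and 1.65% in endothelium, 1.82% and 1.76% in macrophages and 0.887% and 0.971% in progenitors. In macrophages the 337 such cells before thinning, 8.55% of the gate, held 77.7% of the Ifit1 and 72.7% of the Ifit3 UMIs. In endothelium the 344 such cells, 5.39% of the gate, held 63.8% of the Ifit1 UMIs. Ifit1 and Ifit3 help define these cells, so large shares follow from the choice. Of members outside the definition, the macrophages held 31.5% of the Gbp2b, 26.6% of the Ifi27l2a, 25.7% of the Bst2 and 22.5% of the Ifitm3 UMIs. The endothelial cells held 6.56% of the Ifi27l2a, 15.1% of the Bst2 and 13.9% of the Ifitm3 UMIs. A choice made before thinning also favours cells with more UMIs.

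**Figure D3:**
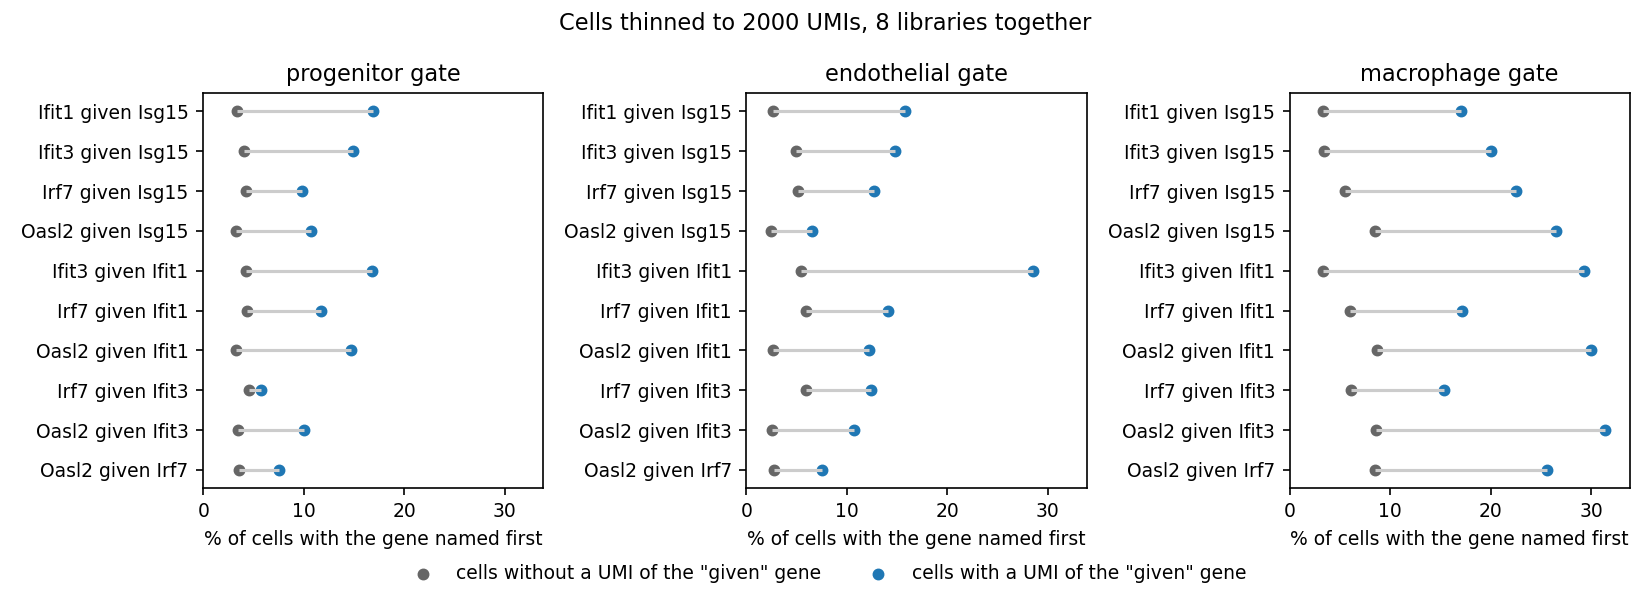
Percent of cells with a UMI of the first gene named, among cells with and without a UMI of the given gene, for each pair of the 5 core genes in progenitor, endothelial and macrophage gates, 8 libraries together, after thinning to 2000 UMIs per cell. The shares with the given gene (blue) are the higher ones in every pair, from 29.3% against 3.30% for Ifit3 given Ifit1 in macrophages to 5.73% against 4.61% for Irf7 given Ifit3 in progenitors.

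Whether the rest of the interferon pathway moved was asked with 164 further genes, of which 156 were found by symbol, in 7 lists of ligands, receptors, signalling proteins, sensors, type I effectors, interferon gamma GTPases and class I processing genes. Calls are from edgeR's quasi-likelihood test on summed counts, adjusted over all genes tested in a gate, at an adjusted p of 0.05 and 1.5-fold. P-values measure the spread between libraries.

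Apart from Ifng, ligand RNA was close to absent. Ifna1, Ifna2, Ifna4, Ifnl2 and Ifnl3 had 0 UMIs in every gate, which in endothelium allows up to 0.107 CPM and in macrophages up to 0.119 CPM (3 UMIs of the gate's total). Ifnb1, the first type I interferon made on sensing, had 4 UMIs in progenitors and 3 in macrophages. Ifng had 872 UMIs in T cells and 285 in NK cells, 57.0% and 18.6% of the 1529 in all cells kept. Of the 6 receptor genes, Ifnlr1, the lambda receptor chain, had 26 UMIs in endothelium, 5 or fewer in every other gate and 0 in macrophages, and the other 5 were tested in each main gate. In endothelium Ifnar1 was at 59.7 and 58.9 CPM and Ifngr1 at 336 and 335 CPM in Ad-Lib and TAN libraries, and 0 of 5 were called there, with 1 at an unadjusted p under 0.05. In T cells, where the make-up of the gate differed between schedules, 4 of 5 had an unadjusted p under 0.05, against 19% of all T-cell genes. The gamma receptor chain Ifngr1 was at 490.5, 228.3, 500.6 and 541.5 CPM in Ad-Lib and at 280.8, 137.1, 128.2 and 222.3 in TAN T cells, overlapping through Ad-Lib 3 alone. The edgeR fit gave -1.04 ± 0.25 (adjusted p = 0.0371), a call held in 2 of 8 fits with a library left out and lost outside the naive list. Ifnar2, a chain of the type I receptor, had T-cell groups apart at 92.3 ± 14.5 and 58.0 ± 5.07 CPM (-0.51, adjusted p = 0.0331), under the fold. Ifngr2, the other gamma receptor chain, also had groups apart, with the TAN values higher, at 31.6 ± 8.26 and 46.5 ± 8.17 CPM (0.58 ± 0.18, adjusted p = 0.0889).

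In endothelium 5 of 122 genes tested were called, all lower under TAN feeding, against 2.18% of all endothelial genes, and 43 had an unadjusted p under 0.05, against 17.4% of all. The median log2 fold change of the 122 was -0.20 against 0.00 for all endothelial genes tested. Of the 16 interferon gamma GTPases tested, 16 had fitted values below 0 (median -0.31) and 2 were called. Iigp1, an immunity-related GTPase, fell by 0.70 ± 0.17 on the log2 scale (537 ± 109 to 325 ± 70.5 CPM, edgeR adjusted p = 0.0314), and Gbp5 by 0.60 ± 0.16 (adjusted p = 0.0412), with overlap between libraries. The Iigp1 call held in 2 of 8 fits with a library left out and was lost by DESeq2, in strict gates and in cells with no adipocyte-marker UMI, and that of Gbp5 held in 3 and was lost by whole profile and in the same cells. Of the 22 class I processing genes tested, 22 were below 0 (median -0.23) and 3 were called. The class Ib molecules H2-Q6 and H2-Q7 fell by 0.73 ± 0.09 and 0.72 ± 0.09 (162 ± 16.4 to 96.7 ± 11.8 and 272 ± 26.4 to 164 ± 16.7 CPM, adjusted p = 0.00056 and 0.00072). These close paralogs can share reads. The third, Cxcl9, is a chemokine that draws T cells rather than a processing gene, and fell by 0.69 ± 0.16 (492 ± 133 to 305 ± 56.35 CPM, adjusted p = 0.0292), a call held in 3 of 8 fits with a library left out.

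None of 53 type I effectors tested in endothelium was called, with 13 at an unadjusted p under 0.05, and 39 were below 0 (median -0.18). H2-Q4 (-0.47, adjusted p = 0.0118) and Stat3 (-0.40, adjusted p = 0.0147) passed the p but not the fold. In endothelial cells with no adipocyte-marker UMI, 1 of 114 pathway genes was called, Cxcl9, from fewer cells, against 97 of all 8517 genes. With capillary cells alone 7 of 120 were called, against 284 of all 10067 genes. These were Cxcl10 (-2.06) and Igtp (-0.70) in addition to the 5.

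In macrophages 3 of 136 genes tested were called, again lower in TAN libraries, against 0.669% of all, and 38 had an unadjusted p under 0.05, against 13.9% of all (median -0.15 against 0.00 for all genes). The guanylate-binding protein gene Gbp3 was at 73.6, 60.9, 56.7 and 52.9 CPM in Ad-Lib and at 28.2, 36.0, 35.2 and 43.95 in TAN libraries, and fell by 0.78 ± 0.14 (edgeR adjusted p = 0.0166). Gbp2 was at 43.4, 37.6, 64.4 and 109 CPM and at 17.9, 21.7, 31.2 and 33.4, and fell by 1.27 ± 0.25 (adjusted p = 0.0248). Both were without overlap. The Gbp3 call was lost without Ad-Lib 1 or TAN 2, and that of Gbp2 without TAN 2 or TAN 4 and in strict gates. Gbp7 (-0.50, adjusted p = 0.0372) and the ubiquitin ligase subunit gene Dtx3l (-0.35, adjusted p = 0.0462) passed the p alone. Ly6a (Sca-1), a surface antigen, fell by 0.92 ± 0.20 (adjusted p = 0.0397), a call held in 1 of 8 fits with a library left out and lost by whole profile and in strict gates. Of 14 interferon gamma GTPases tested 13 were below 0, with a median of -0.58. Of 61 type I effectors 50 were below 0 and 1 was called, and of 23 class I processing genes 21 were below 0 (median -0.13) and 0 were called, with 5 at an unadjusted p under 0.05.

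In progenitors 18 of the 22 class I processing genes tested had fitted values above 0 (median 0.15), and 0 were called by edgeR, with 8 at an unadjusted p under 0.05, against 13.6% of all progenitor genes. In Icam1+ progenitors the immunoproteasome subunit Psmb8 rose by 0.62 ± 0.11 (116 ± 7.50 to 183 ± 24.6 CPM, edgeR adjusted p = 0.0056), the single gene called of 117 tested there, against 1.67% of all genes of the subset. That call was lost by whole profile and without TAN 2, Ad-Lib 5 or TAN 6. Psmb10, another subunit, was at 0.53 (adjusted p = 0.0064) in that subset and at 0.42 (adjusted p = 0.0403) in all progenitors, under the fold. Over all progenitors 1 of 125 genes was called, against 0.588% of all. Ifitm1, a relative of Ifitm3, rose by 1.26 ± 0.25 from 3.37 ± 0.25 to 7.93 ± 3.02 CPM (adjusted p = 0.0452), from 447 UMIs, a call held in 2 of 8 fits with a library left out and lost by whole profile and in strict gates. It was also the single gene called of 72 in F3+ progenitors (2.79 ± 0.55, adjusted p = 0.037), where the call was lost by DESeq2, by whole profile, in strict gates and whenever TAN 2, TAN 4, Ad-Lib 1 or Ad-Lib 5 was left out. In Dpp4+ progenitors 0 of 116 were called by edgeR or DESeq2, with 15 at an unadjusted edgeR p under 0.05, against 10.8% of all genes of the subset.

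**Figure D4:**
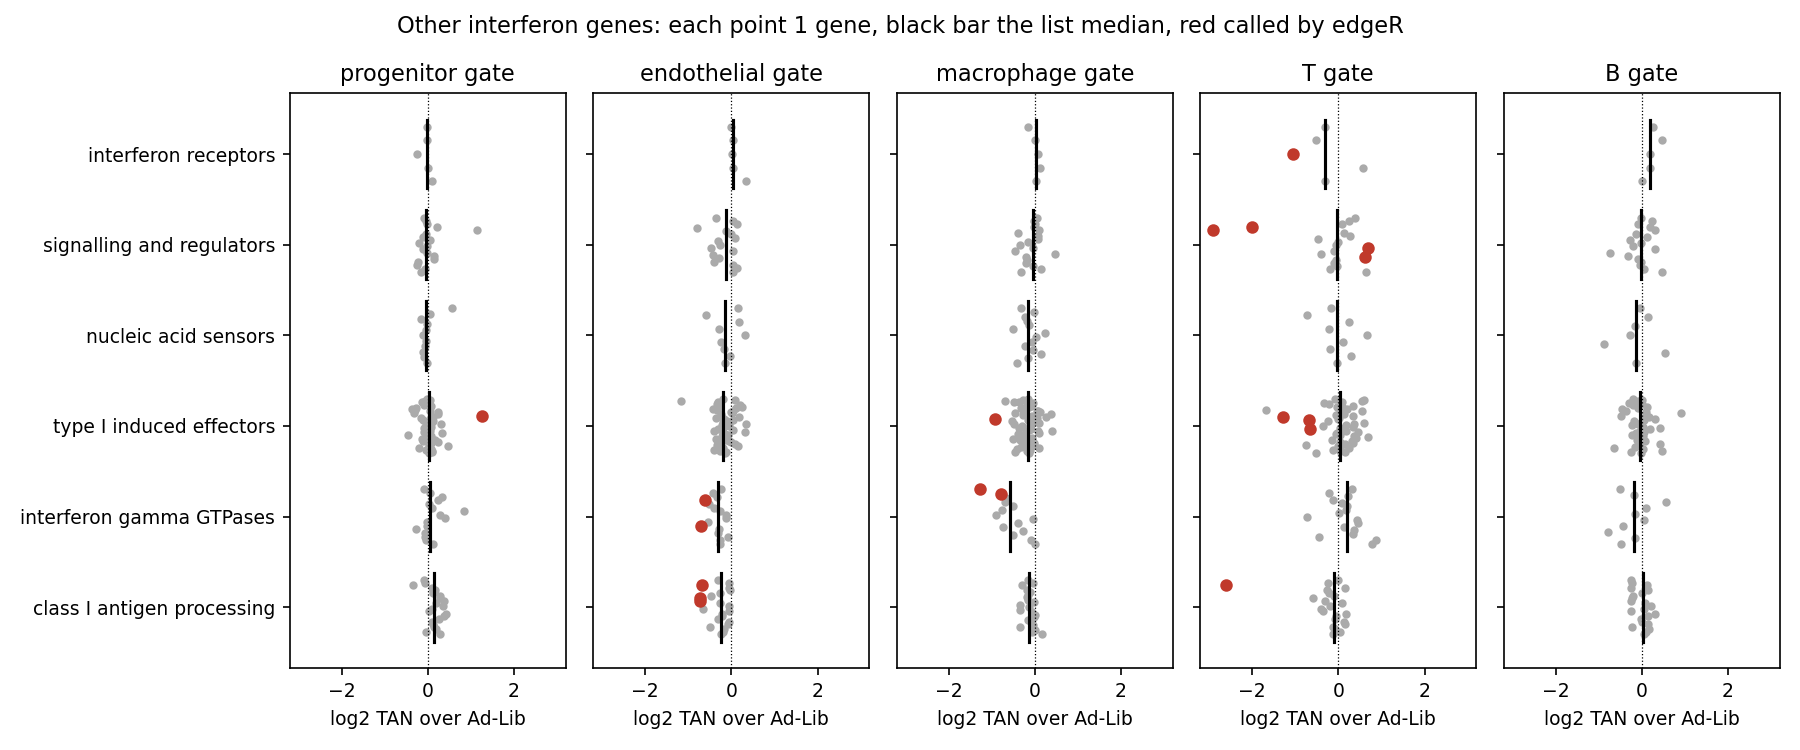
Log2 fold change (TAN over Ad-Lib) of every tested gene of 6 interferon lists in the 5 main gates, with 1 point per gene, genes called by edgeR in red and list medians as black bars. Interferon gamma GTPases lie below 0 in endothelium (16 of 16) and macrophages (13 of 14) and mostly above 0 in T cells (13 of 17).

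In T cells 10 of 122 genes were called, 2 higher and 8 lower, against 3.69% of all T-cell genes, with 38 at an unadjusted p under 0.05 against 19% of all, and a median of 0.02. The count ran from 1 to 23 when a library was left out. Calls among all T-cell genes moved too, from 45 of 9255 without Ad-Lib 7 to 1148 of 8032 without Ad-Lib 3. Irf8 (-2.90 ± 0.45, edgeR adjusted p = 0.0082) and Irf5 (-1.999 ± 0.38, adjusted p = 0.0143) are transcription factors of myeloid cells, and Ciita (-2.61 ± 0.55, adjusted p = 0.0212) is the regulator of class II genes. The phosphatase Ptpn6 rose by 0.69 ± 0.14 (adjusted p = 0.0181). With a library left out Irf8 was called in 8 of 8 fits, Irf5 in 5, Ptpn6 in 3 and Ciita in 2. These values stand beside the macrophage, NK and dendritic markers that were also lower in the TAN T gate, and the direction of Irf8 turned with the cells taken, to 0.42 by whole profile and 0.31 in strict gates. Interferon gamma GTPases were not called in T cells (0 of 17 by edgeR, with 5 at an unadjusted p under 0.05, 13 above 0 and a median of 0.19).

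Ifng, the interferon gamma gene, was at 116, 69.2, 147 and 118 CPM in Ad-Lib and at 61.1, 17.7, 20.9 and 37.0 in TAN T cells. The groups were apart, and Ifng fell by 1.71 ± 0.32 (edgeR adjusted p = 0.0139), from 422 and 450 UMIs, a call held in 4 of 8 fits with a library left out. Outside the naive list Ifng was at 144 ± 24.0 and 95.8 ± 45.3 CPM (-0.65 ± 0.24, edgeR adjusted p = 0.33). There 0 of 108 pathway genes were called by edgeR, with 17 at an unadjusted p under 0.05. Among all 6518 genes tested in those cells 1 was called. The Ifng groups overlapped in those cells through TAN 2, at 161 CPM. In B cells 0 of 104 pathway genes were called by edgeR or DESeq2, with 4 at an unadjusted edgeR p under 0.05 and 1 by DESeq2.

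**Figure D5:**
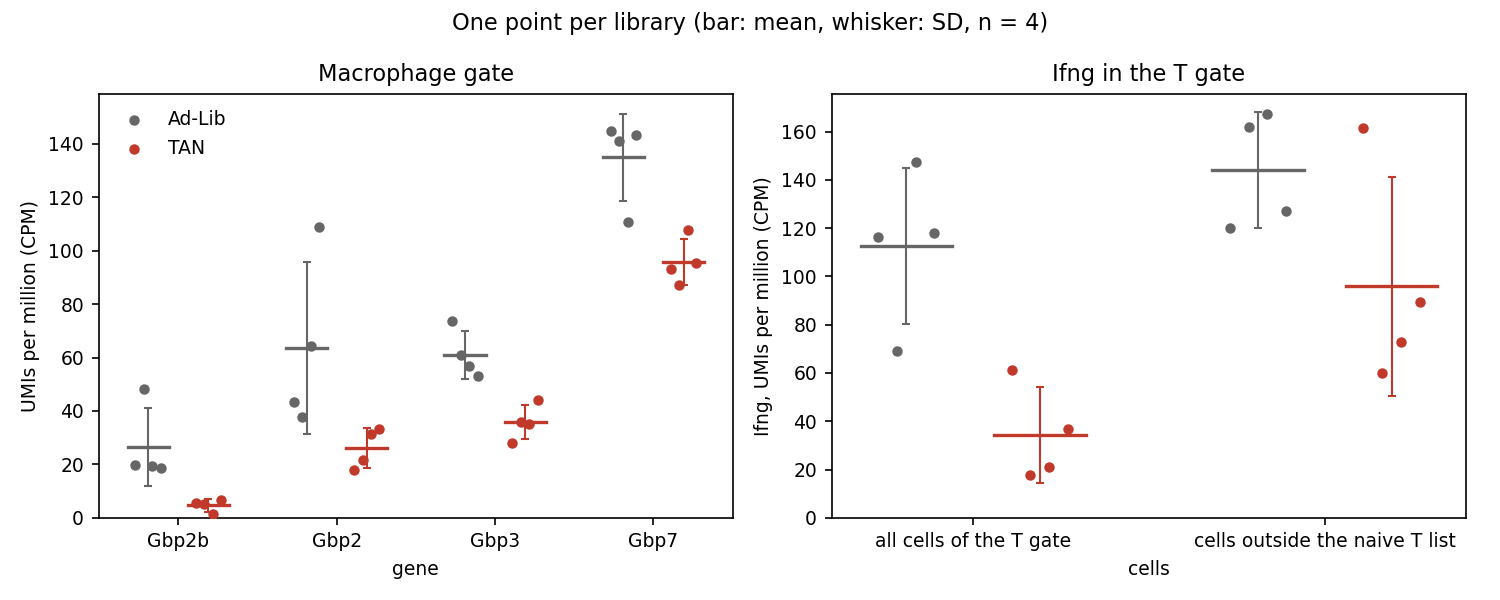
CPM per library (points; bars are group means and whiskers the SD, n = 4) of the guanylate-binding genes Gbp2b, Gbp2, Gbp3 and Gbp7 in macrophages and of Ifng in all T cells and in T cells outside the naive list. The TAN points of all 4 guanylate-binding genes lie under their Ad-Lib points, and Ifng separates the groups in all T cells (69.2 to 147 against 17.7 to 61.1 CPM) but overlaps outside the naive list.

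Counted by separation of the libraries, 17 of the 122 endothelial pathway genes had groups apart, against 9.63% of all endothelial genes. Of the 17, 16 were lower and 1 higher in TAN libraries. In macrophages 20 of 136 had groups apart (all lower), against 5.54% of all. The counts were 8 of 125 in progenitors (7 higher, 1 lower), against 6.77%, and 16 of 122 in T cells (5 higher, 11 lower), against 10.5%. In B cells 0 of 104 had groups apart, against 2.28%.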

How the data were processed

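Raw UMI counts per gene and cell barcode were deposited by the authors, 1 table per library, for 8 SVF libraries (4 Ad-Lib, 4 TAN), unnormalized and limited to barcodes called as cells. The labels name Cell Ranger 3.0.2 and build mm10 (GRCm38), whereas the file headers name Cell Ranger 6.0.1, and neither gives the annotation used for counting. The 9 genes and all lists were chosen with earlier results of these data known.

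Cells with 700 to 30000 UMIs, 200 to 8000 genes and at most 10% mitochondrial UMIs were kept. A gate required 50% of a lineage's markers and, for any other lineage, at most 50% of the best share. These thresholds were set after the files were seen, and doublets were treated only through this exclusion. The study's own cell names were not used here. Counts were summed per library and gate and tested with edgeR 4.0.16 (R 4.3.3; quasi-likelihood, TMM scaling, filterByExpr, Benjamini-Hochberg adjustment over all genes of the gate), with no covariate. Named genes were the 9 members and, per gate, up to 5 called pathway genes of lowest adjusted p plus up to 2 that missed the threshold. Cxcl10, Igtp, Ifitm2, Ifngr1, Ifngr2 and Ifnar2 fall outside this rule and were chosen after their values were seen. Levels between gates were compared by exact sign-flip tests in scipy 1.17.1. Single cells were thinned to 2000 UMIs, leaving out 944 of 6385 endothelial and 500 of 3943 macrophage cells. Promoters came from RefSeq, positions from GENCODE, and similarity of 3' ends from BLAST+ 2.17.0. DESeq2 1.42.0 and other scalings, filters and cell sets were tried as alternatives, and the edgeR code was tested on simulated data. Floors cover counting error only, whereas SDs and the SEs of the edgeR fit include the spread between libraries.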

Additional observations from a re-analysis of the deposited data

Results flagged for a closer look

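In 86 sets of 4 libraries (a member, a gate and a schedule), 6 had 1 library far from the other 3, by a gap that takes most of the set's range (Dixon's test). Chance alone sets apart about 1 in 20 such sets. Gbp2b accounts for 4 of the 6. In macrophages Ad-Lib 3 was at 48.33 CPM against 18.6 to 19.59 in the other Ad-Lib libraries, and the difference between schedules without it is given in the report. The other 3 rest on single UMIs or few: Gbp2b was at 0.05291 CPM in progenitors of Ad-Lib 1, at 1.842 CPM in T cells of Ad-Lib 7 and at 0.4232 CPM in B cells of TAN 8, each with 0 in the remaining libraries of its group. Bst2 in progenitors was at 179.5 CPM in Ad-Lib 3 against 117.8 to 126 in the others, and Ifit3 in B cells was at 16.05 CPM in Ad-Lib 5 against 0 to 2.109. Ad-Lib 3 also had the highest mean of the 5 core genes in macrophages and in progenitors.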

How the results depend on the processing

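Calls among pathway genes depended on which cells and genes were taken. With no filter on low counts, 8 were called in endothelium, 10 in macrophages, 16 in T cells and 1 in B cells. Among all genes the calls were then 366, 234, 792 and 18 in these gates. With cells assigned by whole profile, 0 were called in progenitors and 5 in T cells, beside 51 and 97 among all genes. With strict gates 0 were called in progenitors, 1 in macrophages and 6 in T cells, beside 51, 23 and 181 among all genes. In 2 cell sets chosen after seeing the data, 1 was called in endothelial cells with no adipocyte-marker UMI and 0 in T cells outside the naive list. Among all genes the calls there were 97 of 8517 and 1 of 6518. Leaving out 1 library at a time gave 0 to 2 calls in progenitors, 2 to 7 in endothelium, 0 to 4 in macrophages, 1 to 23 in T cells and 0 to 0 in B cells. Calls among all genes ran from 27 to 134 in progenitors, 138 to 251 in endothelium, 22 to 76 in macrophages and 45 to 1148 in T cells. T cells had 23 without Ad-Lib 3, 1 without Ad-Lib 1, Ad-Lib 7 or TAN 4, 2 without Ad-Lib 5, 3 without TAN 6 and 5 without TAN 8. Macrophages had 0 without TAN 2 and 1 without TAN 4, and endothelium had 2 without Ad-Lib 1, Ad-Lib 7 or TAN 2 and 3 without TAN 4 or TAN 8. Progenitors had 2 without TAN 6 and 0 without any Ad-Lib library or TAN 4. H2-Q6 and H2-Q7 were called in 8 of 8 such fits, Gbp3 and Gbp2 in 6, Ifng in 4, Cxcl9 and Gbp5 in 3, and Iigp1 in 2, and the values for the other called genes stand beside them in the report. Leaving out a library cannot make separate groups overlap, so the number of member sets with groups apart could only stay or rise. It ran from 5 to 8, with 8 without Ad-Lib 3. Of the steps between cell types 0 to 0 passed, with 7 libraries, whose smallest exact p is larger than that of 8. Signs turned in T cells for Ifi27l2a outside the naive list (0.077), for Irf8 by whole profile (0.42) and in strict gates (0.31) and for Ifitm2 by whole profile (0.21). The cause was not tested. A term for replicates 1 to 4 against 5 to 8 gave 10 calls in T cells, Ifngr1 not among them, and 1 in progenitors. No paired analysis was possible because the groups share no replicate number. Depth limits members with few UMIs, among them Gbp2b with 517 in all cells.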

Other observations

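Some values outside the 5 main gates bear on the same genes. In the NK gate (161 cells) Ifng was at 298, 235, 280 and 901 CPM in Ad-Lib and at 441, 154, 75.5 and 126 in TAN libraries, with overlap. A single cell held 79 of the 101 UMIs of Ad-Lib 7, and TAN 2 rests on 8 cells. In the same gate Oasl2 and Gbp2b had 0 UMIs. The genes most like the members over the 40 sums of 5 gates and 8 libraries, each centred within its gate, were Osbpl8 (Pearson r = 0.76), Parp14 (0.73), Rnf213 (0.72), Slfn5 (0.71) and Yipf3 (0.69), a description over sums that share libraries. Of these 5 genes 2 were on the pathway lists, as were 3 of the top 20 and 53 of the 3177 genes compared (1.67%). The members were chosen on the same sums, so nothing is read from these counts.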
